A study of Mus musculus with 2 samples.

Results

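The genes described here build the mitochondrial respiratory chain and ATP synthase, in macrophages sorted from the mouse small intestine. Members were chosen by symbol: every gene whose symbol begins with Nduf, Uqcr, Cox4 to Cox8, Atp5, Sdha, Sdhb, Sdhc, Sdhd or mt-. This gave 109 of the 27998 genes, of which 96 are nuclear and 13 are mt- genes encoded in mitochondrial DNA. The nuclear members comprised 45 complex I, 8 complex II, 8 complex III, 18 complex IV and 17 complex V symbols. A ratio was formed for genes with at least 20 unique molecular identifiers (UMIs, each marking 1 captured transcript) in each library, and 103 members met this minimum, 90 nuclear and all 13 mt- genes. The 6 others were Ndufa4l2, Cox6a2, Cox8b, Cox4i2, Cox7b2 and Cox8c.

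The WT library came from male C57BL/6J mice of the breeder Janvier. The CCR2KO library came from CCR2-/- mice, JAX strain #:004999, bred in-house, and the labels give neither their sex nor the age of either group. Ccr2 encodes the chemokine receptor through which monocytes leave the bone marrow and reach tissue, and the deletion is carried by all cells of the animal. Mucus and epithelium were removed, 3 to 4 intestines were combined per genotype, and viable CD45+ CD11b+ MHCII+ CD64+ cells lacking lineage markers were sorted; Ly6C was among the lineage markers, so Ly6C+ monocytes were gated out of both groups. There was 1 library per genotype, so no test between genotypes was possible. Genotype, breeder and library cannot be told apart. The WT cells ran on 2 lanes, which hold cells of 1 sample and serve only as a technical yardstick.

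Oxidative phosphorylation passes electrons from NADH through complex I, or from succinate through complex II, to ubiquinone, then through complex III and cytochrome c to complex IV, where oxygen is reduced. Complexes I, III and IV pump protons, and complex V (ATP synthase) uses the gradient to make ATP. Complex II is encoded wholly in the nucleus, whereas the other complexes combine nuclear subunits, imported as proteins, with a few subunits transcribed and translated inside the organelle. In macrophages, the use of this pathway relative to glycolysis is known to differ between activation states.

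After removal of cells with fewer than 200 genes or more than 10% mt- UMIs, 3016 of 3054 WT cells and 2612 of 2774 CCR2KO cells remained. The limit on mt- UMIs removed 37 WT cells (1.21%) and 152 CCR2KO cells (5.48%), so it bears directly on the mt- genes. The libraries differed in depth: retained cells held 20678108 UMIs in the WT (median 6129 per cell; 6185 and 6034 in lanes 1 and 2) and 7265386 in the CCR2KO (median 2439). Ccr2 itself stood at 6.88 UMIs per 1000000 (CPM) in the knockout, from 50 UMIs, and 347 and 293 CPM in wild-type lanes 1 and 2. All 10 macrophage markers, such as Cd68, Csf1r and C1qa, were detected in each library, together at 1.39% of UMIs in the knockout and 1.52% and 1.81% in the lanes. By gene they went both ways, with log2 ratios of knockout to wild type from -1.33 to 1.43. At least 1.5-fold higher were 4 of the 10, and 4 were at least 1.5-fold lower. Among all genes with at least 20 UMIs in each library these shares were 24.9% and 10.7%. The 6 erythroid genes made up 0.744% of knockout UMIs, 0.108% of lane 1 and 3.44 CPM of lane 2, and all 6 were detected in the knockout. Only 8 knockout cells, 1 lane 1 cell and 0 lane 2 cells had at least 1% of their UMIs from these genes. The 10 fibroblast and muscle markers, all detected in both, were at 0.0317%, 0.00546% and 0.00337% of UMIs in the same order. The 12 immediate-early genes, which respond quickly to stimulation, held 2.53% of knockout UMIs and 0.668% and 0.658% of the lanes. The 8 heat-shock genes held 0.167%, 0.332% and 0.319% in the same order, the 9 monocyte markers 0.0195%, 0.0713% and 0.0754%, and the 7 endothelial markers 0.0205%, 0.00543% and 0.00550%.

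The nuclear respiration genes were lower in the knockout library nearly without exception, while the mitochondrially encoded genes were higher over all retained cells. Summed over the 90 nuclear members, the level was 12557 CPM in the knockout and 21773 and 22921 CPM in wild-type lanes 1 and 2. This is a log2 ratio of knockout to wild type of -0.82 (counting interval -0.83 to -0.81), or 0.568 times the wild-type level, against 0.074 between lane 2 and lane 1. Here and below, counting intervals are exact 95% intervals and cover counting error only, not the spread between animals. By gene, 89 of 90 nuclear members were below the wild type, and 89 below both lanes (28.9% of all genes were), with a median log2 ratio of (CPM + 1) of -0.76; over all 10239 genes with the same minimum, 36.2% were below and the median was 0.20. At least 1.5-fold lower were 59 nuclear members and 0 were at least 1.5-fold higher, where 10.7% of all genes were that much lower and 24.9% that much higher. Measured against each lane separately, 78 members were at least 20% below both, a rule met by 15.9% of all genes. The lane-to-lane log2 ratios of the same 90 genes ran from -0.45 to 0.29, with a median of 0.088.

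**Figure D1:**
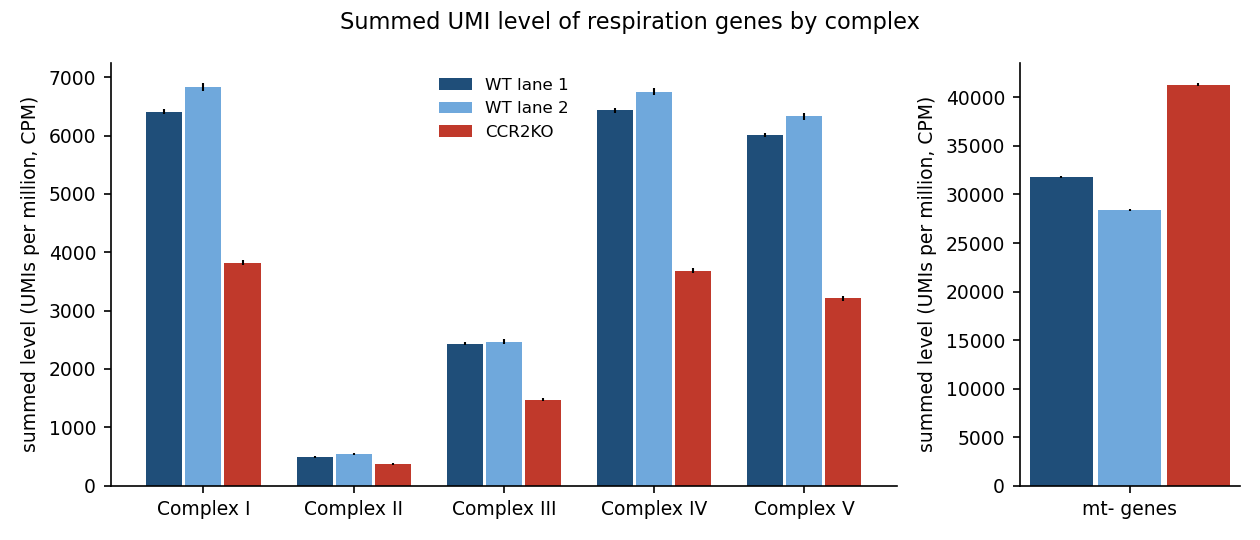
Summed level in CPM of the members of each complex (left) and of the 13 mt- genes (right) in WT lane 1, WT lane 2 and CCR2KO; error bars are exact 95% Poisson intervals for counting error. Each nuclear complex is lower in CCR2KO than in either lane, and the mt- sum is higher, 41324 against 31834 and 28403 CPM.

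Complex I, the NADH dehydrogenase, was at 3819 CPM in the knockout and 6407 and 6832 CPM in wild-type lanes 1 and 2, a log2 ratio of -0.77 (counting interval -0.79 to -0.76). All 44 measured members were lower and 33 were at least 1.5-fold lower. The 7 core subunits, which carry the flavin and iron-sulfur clusters and the quinone site, had a median log2 ratio of -0.69, the 29 accessory subunits one of -0.85, and the 7 assembly factors one of -0.53. Among core subunits the range was wide; a value in parentheses after levels is the log2 ratio of (CPM + 1). Ndufv2, an iron-sulfur subunit of the NADH-oxidising tip, was at 36.7 CPM in the knockout and 94.0 and 101 CPM in wild-type lanes 1 and 2, a log2 ratio of -1.36 (counting interval -1.57 to -1.20). Ndufs1, the large iron-sulfur subunit of the same tip, was at 19.4 CPM in the knockout and 25.05 and 22.6 CPM in wild-type lanes 1 and 2, a log2 ratio of -0.31 (counting interval -0.61 to -0.054). Ndufs4, an accessory subunit required for a stable complex, was at 35.0 CPM in the knockout and 79.0 and 87.9 CPM in wild-type lanes 1 and 2 (-1.20). The knockout value lay below both lanes for each of these genes, close to them only for Ndufs1. Ndufa2, Ndufa13 and Ndufa3, accessory subunits, had log2 ratios of -0.52, -0.94 and -0.45, and Ndufa6 had -0.24. Ndufa4, named for complex I and later assigned to complex IV, was at 167 CPM in the knockout and 371 and 399.9 CPM in wild-type lanes 1 and 2 (-1.18). Its paralogue Ndufa4l2, known as a hypoxia-responsive gene, gave 13 UMIs in the knockout and 2 in the wild type and gave no ratio, being under the minimum.

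Complex II, succinate dehydrogenase, showed the smallest shift of the 5 complexes, 369.8 CPM in the knockout and 489.6 and 540.2 CPM in wild-type lanes 1 and 2, a log2 ratio of -0.45 (counting interval -0.51 to -0.39). All 8 members were lower, but only Sdhb was at least 1.5-fold lower. Sdha, the flavoprotein that oxidises succinate (chr13:74322254-74350280 on GRCm38), was nearly level at 94.7 CPM in the knockout and 96.1 and 97.8 CPM in wild-type lanes 1 and 2, a log2 ratio of -0.029 (counting interval -0.16 to 0.097). Sdhb, the iron-sulfur partner of Sdha, was at 76.5 CPM in the knockout and 127 and 144 CPM in wild-type lanes 1 and 2, a log2 ratio of -0.78 (counting interval -0.92 to -0.65). Over all cells the knockout lay just under the lanes for Sdha and well under them for Sdhb. Both were also below the wild type in the depth windows, but the gap between them did not hold in each. Sdha and Sdhb were at -0.15 and -0.32 in cells of 2000 to 4000 UMIs and at -0.36 and -0.30 at 4000 to 6000. The membrane anchors Sdhc and Sdhd had log2 ratios of -0.54 and -0.54, and the 4 assembly factors Sdhaf1 to Sdhaf4 a median of -0.41.

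Complex III, the cytochrome bc1 complex, was at 1475 CPM in the knockout and 2432 and 2469 CPM in wild-type lanes 1 and 2, a log2 ratio of -0.73 (counting interval -0.76 to -0.70), with 8 of 8 members lower and 5 at least 1.5-fold lower. Uqcrb, a small subunit next to the quinone-binding site (chr13:66900617-66905378 on GRCm38), had the lowest ratio of all 90 nuclear members. It was at 133 CPM in the knockout and 448 and 469 CPM in wild-type lanes 1 and 2, a log2 ratio of -1.76 (counting interval -1.87 to -1.67). Uqcrh, the hinge protein that contacts cytochrome c1, was at 499 CPM in the knockout and 656 and 642 CPM in wild-type lanes 1 and 2 (-0.39). Both genes were below both lanes, but by unlike amounts. Uqcrq and Uqcr10, other small subunits, had log2 ratios of -0.54 and -0.87. Uqcrfs1, the Rieske iron-sulfur protein, was at -0.58, and the core proteins Uqcrc1 and Uqcrc2 at -0.76 and -0.72.

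Complex IV, cytochrome c oxidase, was at 3681 CPM in the knockout and 6434 and 6752 CPM in wild-type lanes 1 and 2, a log2 ratio of -0.83 (counting interval -0.85 to -0.81). All 13 measured members were lower, 8 of them at least 1.5-fold. Cox5a and Cox5b, nuclear subunits that bind the catalytic core, had like ratios. Cox5b was at 156 CPM in the knockout and 398 and 418 CPM in wild-type lanes 1 and 2 and Cox5a at 179.9 CPM in the knockout and 456 and 485 CPM in wild-type lanes 1 and 2, log2 ratios of -1.37 and -1.36. Cox6b1, on the cytochrome c side, was at -1.14, Cox8a at -0.99 and Cox7c at -0.77. Cox4i1, a regulatory subunit that binds ATP, differed less, 679 CPM in the knockout and 840.3 and 882 CPM in wild-type lanes 1 and 2 (-0.33). Cox7a2l, a factor that joins complexes III and IV into supercomplexes, was at 279 CPM in the knockout and 352 and 400.2 CPM in wild-type lanes 1 and 2 (-0.39), while its relative Cox7a2 was at -1.06.

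Among the paired tissue isoforms of complex IV, the general form held nearly all UMIs in both libraries. Cox6a1 was at 299.5 CPM in the knockout and 418 and 447 CPM in wild-type lanes 1 and 2 (-0.51), whereas the heart and muscle form Cox6a2 gave 6 knockout and 33 wild-type UMIs. The muscle form Cox7a1 was at 6.74 CPM in the knockout and 7.64 CPM in the wild type, and the testis form Cox6b2 at 3.58 and 5.80 CPM; the counting intervals were -0.67 to 0.29 and -1.37 to -0.076 log2. Cox4i2, the lung and hypoxia form, had 2 and 3 UMIs, and Cox8b 3 and 1. Cox7b2 and Cox8c had 0 UMIs in both, which allows up to 0.413 CPM in the knockout and 0.145 CPM in the wild type (3 UMIs of each total).

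Complex V was the nuclear complex furthest below the wild type, at 3213 CPM in the knockout and 6010.1 and 6328 CPM in wild-type lanes 1 and 2, a log2 ratio of -0.93 (counting interval -0.95 to -0.91). Of 17 members, 16 were lower and 12 at least 1.5-fold lower. The 5 subunits of the F1 head, where ATP is formed, had a median log2 ratio of -1.05. Atp5e, its epsilon subunit, was at 383 CPM in the knockout and 880.4 and 937 CPM in wild-type lanes 1 and 2 (-1.23), while the catalytic Atp5b and the alpha subunit Atp5a1 were at -0.55 and -0.50. All 4 subunits of the peripheral stalk, which holds the head still, were at least 1.5-fold lower. Atp5o, which caps that stalk, was at 78.7 CPM in the knockout and 190.3 and 198 CPM in wild-type lanes 1 and 2 (-1.28), and Atp5h at -1.12. Atp5l, a membrane subunit, was at 516 CPM in the knockout and 916 and 952 CPM in wild-type lanes 1 and 2 (-0.84). The 3 genes for the proton-carrying c ring encode the same mature protein but differed in ratio over all cells. Atp5g1 was at 122 CPM in the knockout and 243 and 250.2 CPM in wild-type lanes 1 and 2 (-1.002), Atp5g2 at 236 CPM in the knockout and 394 and 417 CPM in wild-type lanes 1 and 2 (-0.76) and Atp5g3 at 141 CPM in the knockout and 189 and 186 CPM in wild-type lanes 1 and 2 (-0.42). The difference between them depended on depth: in cells of 4000 to 6000 UMIs Atp5g1 and Atp5g3 were at -0.56 and -0.55, and at 6000 to 10000 UMIs at -0.38 and -0.49. Atp5s, the only nuclear member above the wild type, was at 3.72 and 3.19 CPM from 27 and 66 UMIs, a log2 ratio of 0.17 (counting interval -0.48 to 0.89); it was at -0.44 in cells of 2000 to 4000 UMIs. It and Atp5sl (-0.15) are related by symbol and are not subunits of the enzyme. Leaving out assembly factors, the supercomplex factor and these relatives, 76 of 76 measured subunits were lower, with a median of -0.80.

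**Figure D2:**
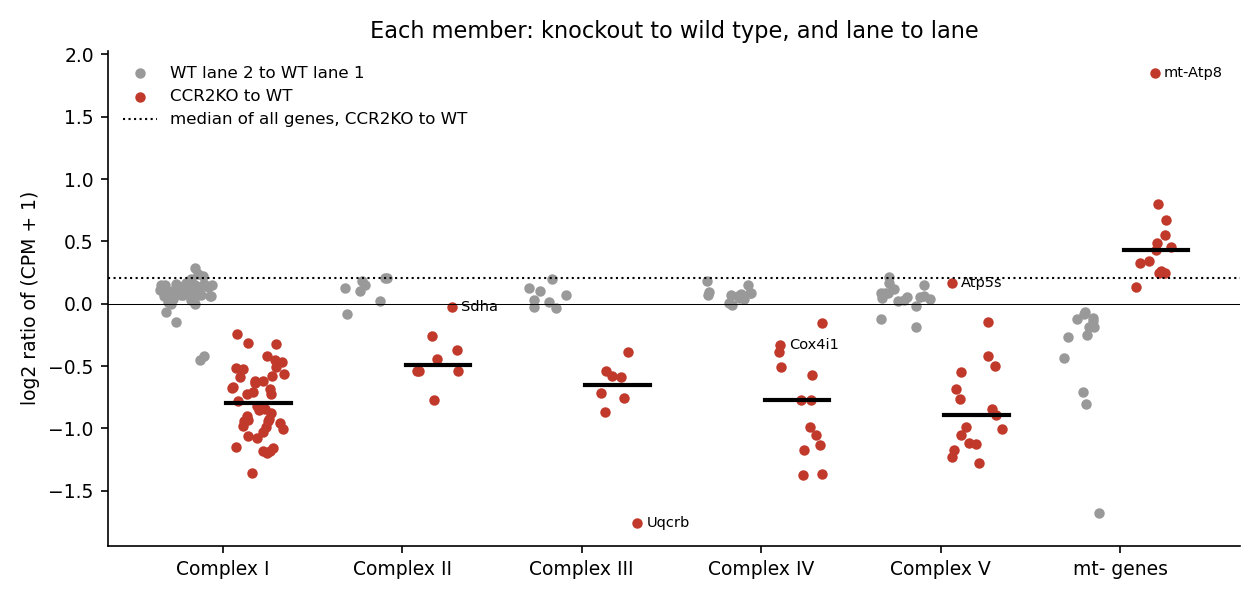
Log2 ratio of (CPM + 1) for each of the 103 measured members, CCR2KO to WT (red) and WT lane 2 to WT lane 1 (grey), by complex; black bars are medians of the knockout ratios and the dotted line is the median of all genes tested, 0.20. Red points of the nuclear complexes lie below 0 except Atp5s, from Uqcrb at -1.76 upwards, and the 13 mt- points lie above 0.

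Many nuclear respiration genes are known targets of the transcription factors NRF1 and GABPA and carry YY1 or ERR sites, so the members' start sites were searched for these motifs. Windows of 250 bases before to 50 after the start were available from RefSeq (GRCm38.p6) for 80 of 96 nuclear members, in 86 windows. The NRF1 motif GCGCATGCG occurred, on either strand, in 11.6% of these windows and in 1.75% of all 32851 windows. The YY1 motif AAGATGGCG occurred in 10.5% against 1.403%, the GABPA motif CCGGAAGT in 5.81% against 3.89%, the ERR motif TCAAGGTCA in 2.33% against 0.423%, and the short SP1 motif GGGCGG in 45.3% against 35.7%. None of these motifs is contained in another; the NRF1 motif overlaps its own reverse complement, and each window was counted once per motif. A match is a run of letters and not a measured binding site. For Atp5g2, Atp5j2 and Atp5sl, the bases after the RefSeq start were not found as an unbroken run in any GENCODE M21 transcript of the gene. The 10 members with the NRF1 motif are shown because NRF1 is the factor best known for regulating these genes, each with up to 10 bases on either side, 5′ to 3′ on the gene's strand and with the motif, or its reverse complement CGCATGCGC, in capitals.
Atp5l: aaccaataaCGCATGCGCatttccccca
Cox6a1: aggaacggggCGCATGCGCgctctcgctc
Atp5g2: gctccggccgCGCATGCGCagagccttcc
Atp5k: ttcactgcggCGCATGCGCctttctggct
Uqcr11: atcgccttcaCGCATGCGCtatacgtctg
Ndufa11: cctgcactgcGCGCATGCGcgcacgcctt
Ndufa8: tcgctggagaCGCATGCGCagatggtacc
Uqcrc1: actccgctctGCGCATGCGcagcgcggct
Ndufaf4: ccagatgtctGCGCATGCGcctgtgcgga
Ndufaf5: agtcccgttgGCGCATGCGcctaatagaa

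These runs lie at chr9:44920965-44920992 (-) for Atp5l, chr5:115349101-115349129 (-) for Cox6a1, chr15:102671070-102671098 (-) for Atp5g2, chr5:108434430-108434458 (-) for Atp5k, chr10:80406808-80406836 (-) for Uqcr11, chr17:56717692-56717720 (+) for Ndufa11, chr2:36049329-36049357 (-) for Ndufa8, chr9:108936668-108936696 (+) for Uqcrc1, chr4:24897960-24897988 (+) for Ndufaf4 and chr2:140170652-140170680 (+) for Ndufaf5. Cox6a1 encodes a subunit of complex IV, Atp5l, Atp5g2 and Atp5k encode subunits of complex V, Ndufa11 and Ndufa8 accessory subunits of complex I, Uqcr11 and Uqcrc1 subunits of complex III, and Ndufaf4 and Ndufaf5 complex I assembly factors. The 8 members with the YY1 motif are shown in the same way; the motif lies before the start site in Atp5j alone.
Atp5j2: ccaggacttcAAGATGGCGtcactcggtg
Atp5j: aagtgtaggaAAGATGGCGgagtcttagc
Ndufc1: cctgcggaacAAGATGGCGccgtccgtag
Ndufs6: ggtcaccggcAAGATGGCGgcggtgct
Ndufs7: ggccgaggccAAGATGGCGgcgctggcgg
Ndufs4: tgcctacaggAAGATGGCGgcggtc
Ndufa9: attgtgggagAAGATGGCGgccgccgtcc
Atp5sl: gttacctggcAAGATGGCGgcgcccagag

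The YY1 runs lie at chr5:145191500-145191528 (-) for Atp5j2, chr16:84835046-84835074 (-) for Atp5j, chr3:51408915-51408943 (-) for Ndufc1, chr13:73328433-73328459 (-) for Ndufs6, chr10:80249463-80249491 (+) for Ndufs7, chr13:114388045-114388069 (-) for Ndufs4, chr6:126849097-126849125 (-) for Ndufa9 and chr7:25619430-25619458 (+) for Atp5sl. Ndufs4, with one of the lower ratios of complex I (-1.20), is in this set. Members with the NRF1 motif had a median log2 ratio of -0.72 (10 genes) and matched members without it -0.86 (68 genes). For YY1 the medians were -0.94 (8 genes) and -0.77, and for GABPA -0.99 (5 genes) and -0.78. For each of these 3 motifs, members with it and members without it were both lower in the median.

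The 13 mt- genes lay on the other side of the wild type over all retained cells. Their sum was 41324 CPM in the knockout and 31834 and 28403 CPM in wild-type lanes 1 and 2, a log2 ratio of 0.42 (counting interval 0.42 to 0.43); lane 2 to lane 1 was -0.16. All 13 were above both lanes, as were 57.5% of all genes, and 3 were at least 1.5-fold higher, as were 24.9% of all genes. Without lane 1 the count was 5, and with median-of-ratios size factors, or in cells of 2000 to 4000 or of 4000 to 6000 UMIs, it was 1. The share over all genes was not taken under these alternatives. By complex, the mt- genes of complex I had a summed log2 ratio of 0.38 (7 genes), complex III 0.55 (mt-Cytb alone), complex IV 0.44 (3 genes) and complex V 0.38 (2 genes). The mt- UMIs per nuclear respiration UMI were 3.29 in the knockout and 1.46 and 1.24 in the lanes.

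Among the catalytic core of complex IV, mt-Co3 was at 9981 CPM in the knockout and 6512 and 5708 CPM in wild-type lanes 1 and 2 (0.67). mt-Co1, which holds the oxygen-reducing centre, was at 7502 CPM in the knockout and 6473 and 5695 CPM in wild-type lanes 1 and 2 (0.26), and mt-Co2 at 0.25. mt-Cytb, the cytochrome b of complex III, was at 3507 CPM in the knockout and 2445 and 2254 CPM in wild-type lanes 1 and 2 (0.55). All of these lay above both lanes in the knockout. The complex I genes mt-Nd1, mt-Nd2, mt-Nd3, mt-Nd4 and mt-Nd5 had log2 ratios of 0.49, 0.32, 0.43, 0.25 and 0.13. mt-Atp6, the proton channel subunit of complex V, was at 7945 CPM in the knockout and 6404 and 5886 CPM in wild-type lanes 1 and 2 (0.35).

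mt-Atp8, the small membrane subunit made from the same transcript as mt-Atp6, had the highest ratio, 294 CPM in the knockout and 91.3 and 55.5 CPM in wild-type lanes 1 and 2, a log2 ratio of 1.85 (counting interval 1.77 to 1.955). The annotated genes overlap by 43 bases (chrM:7766-7969 and chrM:7927-8607, GRCm38), mt-Nd4l and mt-Nd4 by 7 and mt-Atp6 and mt-Co3 by 1, so reads at these joins cannot be assigned to 1 gene with certainty. mt-Nd4l was at 184 CPM in the knockout and 121 and 68.6 CPM in wild-type lanes 1 and 2 (0.80). mt-Nd6, the only member on the light strand, was at 26.6 CPM in the knockout and 24.2 and 6.88 CPM in wild-type lanes 1 and 2 (0.46). The lanes themselves differed most in these 3 genes: lane 2 over lane 1 gave log2 values of -0.71, -0.81 and -1.68.

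Depth moved with the mt- result and not with the direction of the nuclear result. Within the wild type, the mt- level was 50728 and 49137 CPM in lane 1 and lane 2 cells with 2000 to 3000 UMIs and 25866 and 22784 CPM in cells with 10000 or more. Knockout cells of 2000 to 3000 UMIs were at 43639 CPM, below both lanes in that class. In cells of 2000 to 4000 UMIs (713 WT and 1051 CCR2KO, medians 2940 and 2824) the mt- log2 ratio was -0.19, the reverse of that over all cells. It was 0.054 at 4000 to 6000 UMIs and 0.36 at 6000 to 10000, windows added after the data were seen. The direction of the mt- difference thus turned with the depth of the cells compared. mt-Atp8 kept its sign in each window, with 1.10, 1.26 and 1.73, while mt-Nd4 gave -0.46, -0.15 and 0.23.

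**Figure D3:**
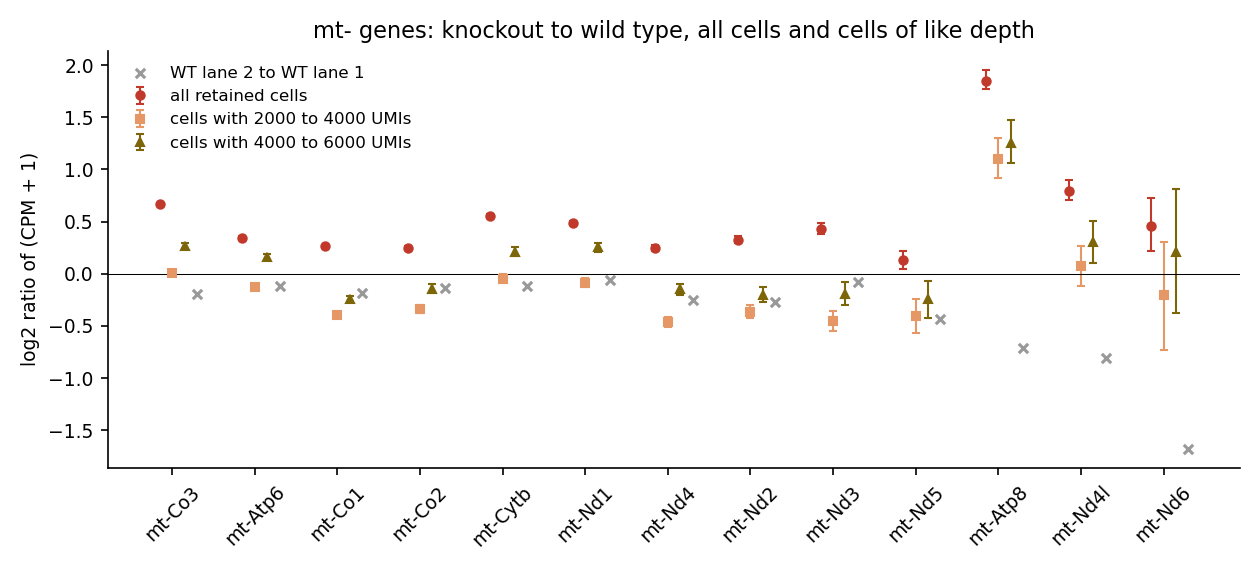
Log2 ratio of (CPM + 1), CCR2KO to WT, for each mt- gene over all retained cells, in cells with 2000 to 4000 UMIs and in cells with 4000 to 6000 UMIs, with bars for 95% counting intervals; grey crosses are WT lane 2 to WT lane 1. mt-Atp8 is above 0 in all 3 sets of cells, whereas mt-Nd4 goes from 0.25 over all cells to -0.46 at 2000 to 4000 UMIs.

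The nuclear level was nearly flat over depth in the wild type, between 21152 and 23302 CPM, and ran from 10110.2 CPM in knockout cells under 1000 UMIs to 13822 CPM at 6000 to 10000. It was below both lanes in each of the 5 depth classes from 1000 to 10000 UMIs, those with at least 20 cells of each library. At 2000 to 4000, 4000 to 6000 and 6000 to 10000 UMIs the summed nuclear log2 ratio was -0.87, -0.65 and -0.61. At the greatest of these depths 35 nuclear members were at least 1.5-fold lower, with the share over all genes not taken in that window. The class of 6000 to 10000 UMIs held only 95 knockout cells, against 971 wild-type cells. Ndufa6 (0.069), Ndufs1 (0.036), Sdhaf1 (0.14) and Cox6b2 (0.76) were among the genes that no longer lay below the wild type. Uqcrb stayed at -1.56 there.

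**Figure D4:**
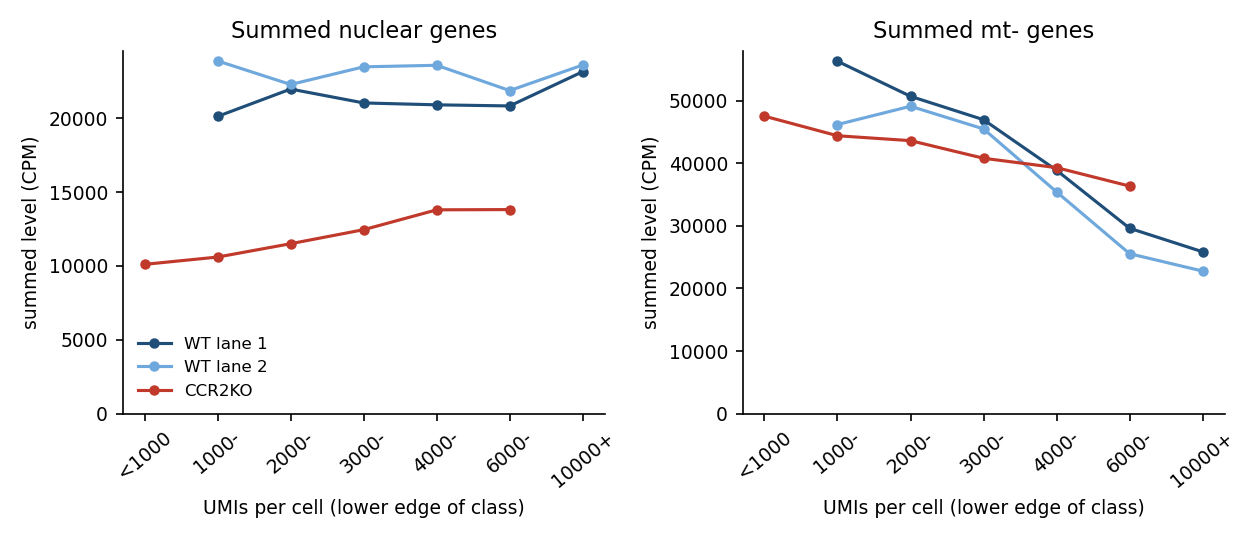
Summed level in CPM of the nuclear members (left) and the mt- genes (right) against UMIs per cell, by class, in WT lane 1, WT lane 2 and CCR2KO; each point sums the cells of a class with at least 20 cells. The nuclear lines stay apart in the classes from 1000 to 10000 UMIs, while the mt- lines of the lanes go from 50728 and 49137 CPM at 2000 to 3000 UMIs to 25866 and 22784 CPM at 10000 or more.

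The nuclear difference ran through most of the population of cells. With each cell thinned to 1000 UMIs, which left out 196 knockout and 1 wild-type cell, nuclear members took a median of 1.1% of UMIs in knockout cells and 2.1% and 2.2% in cells of lanes 1 and 2. The 5th to 95th percentiles were 0.5% to 2.10% in the knockout, 1.14% to 3.30% in lane 1 and 1.20% to 3.50% in lane 2. The 95th percentile of the knockout cells thus lay at the median of lane 1, and the distributions overlapped. The thinned mt- share had a median of 4.0% in the knockout and 3.20% and 2.80% in the lanes. In knockout cells with 2% to 3% mt- UMIs the nuclear level was 12912 CPM, and with 6% to 10% it was 12824 CPM. In the wild type the same classes held 22158 and 20609 CPM. In the 22 knockout cells with under 1% mt- UMIs the nuclear level was 5572 CPM, against 21029 CPM in 60 wild-type cells. These few knockout cells were unlike the rest in other ways too. They held 4.50% ribosomal protein UMIs, against 11.1% to 13.5% in the other knockout classes. Immediate-early genes held 1.24% of their UMIs, against 2.27% to 2.71%. Whether they were cells of another type was not tested.

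Within the wild type, Ccr2 UMIs were used to ask whether respiration genes follow Ccr2 itself, which marks cells recently derived from monocytes. Each of the 2492 WT cells with at least 3000 UMIs was thinned to 3000, and cells were classed by their Ccr2 UMIs: 1601 with 0, 339 with 1, 196 with 2 and 356 with 3 or more. The nuclear sum was 21757, 22742, 22209 and 20859 CPM over these classes. It was 13181 CPM in 977 knockout cells treated alike. The class without Ccr2 UMIs, in which cells may still hold uncaptured Ccr2 transcripts, thus stood with the other wild-type classes and above the knockout. In log2, the top class to class 0 was -0.061 (counting interval -0.082 to -0.040), with -0.048 in lane 1 and -0.071 in lane 2. By complex it was -0.11 for I, -0.17 for II, -0.11 for III, -0.040 for IV and 0.0014 for V. Ribosomal protein genes took 17.6% of UMIs in class 0 and 24.8% in the top class, and their part in the small nuclear trend was not tested. With CPM taken outside mt- and ribosomal protein genes, the nuclear ratio was 0.066, of the other sign.

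The mt- sum was lower with more Ccr2 UMIs: 33466, 32929, 30989.8 and 28811 CPM, a log2 ratio of top class to class 0 of -0.22 (counting interval -0.23 to -0.20). With CPM taken outside mt- and ribosomal protein genes it was -0.089. It was -0.17 in lane 1 and -0.47 in lane 2, so leaving out lane 1 moved it by more than 1.5 times. Median UMIs before thinning were 6658, 8419, 8392.5 and 7715.5 from class 0 to the top class. In cells of 4000 to 6000 UMIs before thinning the mt- ratio was 0.073, and at 6000 to 10000 it was -0.33. The mt- trend thus differed in sign between these windows, which were added after the data were seen. They held 71 and 149 top-class cells against 428 and 639 cells of class 0. The reason for the difference was not tested. Other lists differed over the classes as well. From class 0 to the top class, the 9 monocyte markers, which include Ccr2, went from 189 to 2369.9 CPM and the 10 macrophage markers from 17795 to 12139.5 CPM. The 7 B or plasma cell markers went from 2057 to 104 CPM and the 7 endothelial ones from 75.6 to 15.9 CPM. The 6 erythroid genes went from 883 to 19.3 CPM in lane 1 and from 3.39 to 12.5 CPM in lane 2. Only 1 retained lane 1 cell and 0 lane 2 cells had at least 1% of UMIs from these genes, so the lane 1 values may rest on very few cells. Without cells with at least 1% of UMIs from markers of another cell type, 356 top-class and 1570 class 0 cells were left. The nuclear and mt- class ratios then stayed within their counting intervals. That filter did not use the monocyte and macrophage markers, and the part of the lists was not tested further.

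Among single members, 3 of 82 nuclear genes with at least 20 UMIs in class 0 of each lane were at least 25% higher in the top class in both lanes, and 6 at least 20% lower. Over all 6079 genes meeting the same minimum the shares were 6.97% and 18%. Over this and 5 further random thinning draws, added after the data were seen, the nuclear counts ran from 1 to 3 higher and from 2 to 6 lower. The mt- genes gave 0 higher and 2 lower in each draw, of 12 measured. Cox7a2l, the supercomplex factor, was at 329.8, 369, 369 and 455 CPM over the 4 classes, with log2 ratios of 0.23 to 0.46 over the 6 draws. Ndufa6, a complex I accessory subunit, was at 235, 277, 294 and 319 CPM over the 4 classes (0.15 to 0.49). Atp5g2, a c ring gene, was at 342, 423, 474 and 434 CPM over the 4 classes (0.34 to 0.46). In the first draw, from which the levels by class are given, these 3 had the highest ratios of members with at least 100 UMIs in class 0 of each lane. The next 3 had the lowest. Ndufv3, a small complex I subunit, was at 201, 199.6, 172 and 133 CPM over the 4 classes, with a wide range over draws of -0.59 to -0.18. mt-Cytb was at 2719, 2534, 2187 and 2004 CPM over the 4 classes (-0.47 to -0.40) and mt-Nd4l at 126, 85.5, 131 and 89.9 CPM over the 4 classes (-0.59 to -0.39). The rule of 25% higher in both lanes was met by Atp5g2 in 5 of the 6 draws, and by Cox7a2l and Ndufa6 in 3 each. That of 20% lower was met by Ndufv3 in 2 draws and by mt-Cytb and mt-Nd4l in 6 each. All draws thin the same cells and are no replicates.

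**Figure D5:**
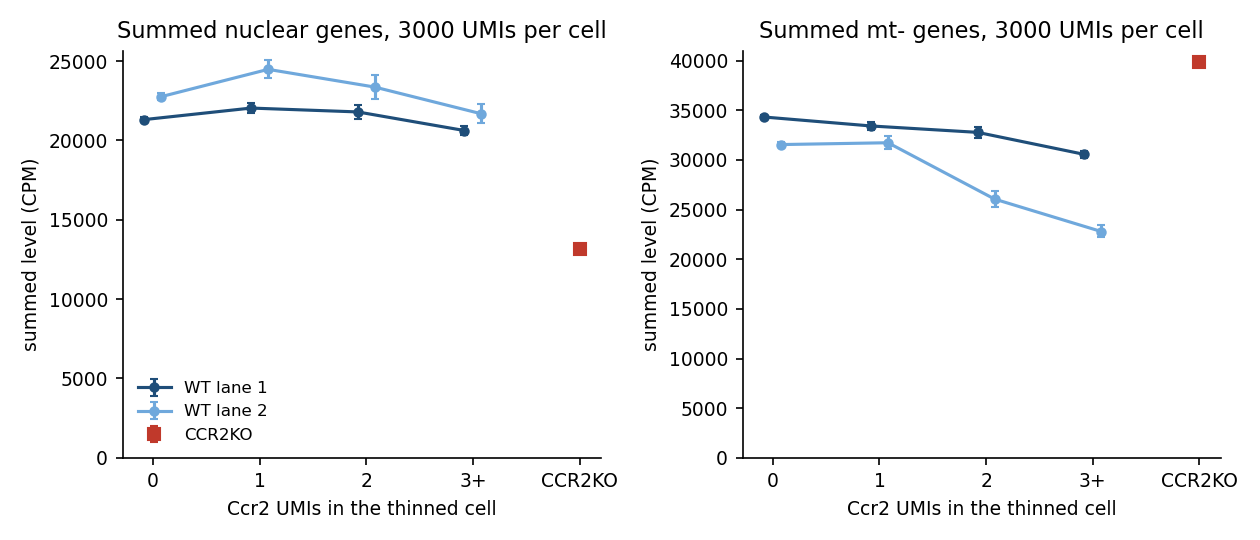
Summed level in CPM of the nuclear members (left) and the mt- genes (right) by Ccr2 UMIs in WT cells thinned to 3000 UMIs, for lane 1 and lane 2, with the CCR2KO cells thinned alike as a square; bars are exact 95% Poisson intervals. The nuclear level changes little over the classes and CCR2KO lies below all of them, at 13181 CPM.

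Other genes of the pathway, from lists outside the symbol rule, were mostly but not uniformly lower. Of 16 further components of the chain, 12 were lower, with a median log2 ratio of -0.52. At least 1.5-fold lower were 7, and 1 was at least 1.5-fold higher. Among all 10239 genes tested, 36.2% were lower, 10.7% at least 1.5-fold lower and 24.9% at least 1.5-fold higher. Cycs, the cytochrome c that carries electrons from complex III to IV, was at 83.3 CPM in the knockout and 208 and 222 CPM in wild-type lanes 1 and 2 (-1.34). Hccs, which attaches haem to it, was at 37.0 CPM in the knockout and 17.9 and 22.3 CPM in wild-type lanes 1 and 2 (0.91). These neighbours in the pathway lay on opposite sides of the wild type. Of 30 measured assembly factors 24 were lower (median -0.27), from Cox20 at -0.98 to Coa5 at 0.45 among those with at least 100 UMIs in each library, the minimum for genes named here. Of 13 citric acid cycle genes 10 were lower (median -0.37), from the fumarase Fh1 at -1.26 to Suclg2, a subunit of succinyl-CoA ligase, at 0.59.

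Of the regulators of mitochondrial gene expression, 4 of 13 measured were lower, with a median of 0.14. Over all genes tested, 36.2% were lower and the median was 0.20, so these genes stood near the background. Esrra, the nuclear receptor ERR alpha that activates respiration genes, was at 49.6 CPM in the knockout and 22.9 and 27.7 CPM in wild-type lanes 1 and 2 (0.997). Slirp, which stabilises mitochondrial mRNAs, was at 107 CPM in the knockout and 168 and 179 CPM in wild-type lanes 1 and 2 (-0.68). The knockout thus lay above both lanes for Esrra and below both for Slirp. Carriers and channels had 9 of 12 lower (median -0.63), with Vdac3, an outer membrane channel, at -0.90 and the phosphate carrier Slc25a3, which supplies ATP synthase, at 0.62. Import and chaperone genes had 10 of 14 lower (median -0.49), from the chaperonin subunit Hspe1 at -1.40 to the protease Lonp1 at 0.36. Mitophagy and peroxide genes had 7 of 11 lower (median -0.30), from the peroxiredoxin Prdx5 at -1.38 to the mitophagy receptor Bnip3 at 0.49. The 76 measured mitochondrial ribosomal protein genes had 72 lower, with a median of -0.61.

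Some gene groups outside respiration were lower too. Cytosolic ribosomal protein genes had lower values for 83 of 92, and held 12.6% of knockout UMIs and 20.2% and 20.5% of the lanes. The ratio varied with transcript length among genes outside the rule, with the cytosolic ribosomal protein genes left out. Their median log2 ratio was 0.39 under 500 bases (90 genes) and -0.42 at 500 to 750 bases (200 genes). It was -0.40 at 750 to 1000 bases (361 genes) and -0.28 at 1000 to 1500 (935 genes). At 1500 to 2500 bases it was 0.024 (2233 genes) and at 2500 or more 0.35 (6208 genes). In the same classes nuclear members had medians of -0.70 (6 genes), -0.77 (30 genes) and -0.90 (11 genes). From 1000 bases up these were -0.78 (17 genes), -0.66 (16 genes) and -0.54 (10 genes). The 263 other genes with transcripts under 1000 bases and a mean of at least 50 CPM again left out ribosomal protein genes. Of these 263, 47.9% were at least 1.5-fold lower, with a median of -0.55. Of the 92 measured ribosomal protein genes of any length and level, 67 were at least 1.5-fold lower, with a median of -0.77. Among all genes tested, 10.7% were that much lower. The 8 heat-shock genes had a summed log2 ratio of -0.97, and the 3 endothelial markers that met the minimum one of 1.62. The part of transcript length and of the immediate-early share in the nuclear result was not tested. That of the heat-shock and endothelial shares was not tested beyond leaving out cells with many such UMIs. With CPM taken outside mt- and ribosomal protein genes the summed nuclear log2 ratio was -0.94, and with wild-type cells lacking Ccr2 UMIs as the only comparison it was -0.80. Without the 40 WT and 44 CCR2KO cells with at least 1% of UMIs from markers of another cell type, it was -0.82.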

How the data were processed

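Small intestinal macrophages were profiled with the 10x Genomics single cell 3′ v2 protocol, per the labels' protocols. The deposited values are UMI counts per gene and cell, not normalized; the submitters' processing notes name Cell Ranger 3.0.1 and the build mm10 (GRCm38), and the annotation is not given in the sources used here. The steps by which cells were called and whether the lanes were brought to a common depth are also not given there. Wild-type lanes were read from the barcode suffix, as the labels describe; they shared 5 barcode sequences with each other, and the libraries shared 6.

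Cells with at least 200 genes and at most 10% mt- UMIs were retained, and their counts were summed per library and lane and scaled to CPM of all UMIs. Gene ratios are log2(CPM + 1), which understates changes of low genes; summed ratios have no pseudocount. A call is a 1.5-fold difference, or a level at least 25% above or 20% below both lanes. No doublets were removed in the main values; removing the highest Scrublet scores (scanpy 1.11.5) per lane was an alternative. For the Ccr2 classes each cell was thinned without replacement. UMIs mark 1 transcript end each, so CPM were not divided by length. Sums carry exact Poisson intervals and ratios exact binomial (Clopper-Pearson) ones. The mt- to nuclear ratio is the exception, with a normal approximation that served only to tell which of its values moved. With 1 library per genotype there were no residual degrees of freedom and no test. Scripts were tested on simulated data.

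The genes named are, per complex, the 3 with the highest mean CPM and the 2 highest and 2 lowest ratios among those with at least 100 UMIs in each library, with all mt- genes, the complex II subunits and the isoform sets; the core subunits, Uqcrfs1, Uqcrc1, Uqcrc2, Atp5a1, Atp5b, Atp5s and those shown for motifs were named beyond that rule after their values were seen. The members and lists were chosen with earlier results of these data known. All 109 members were found by Ensembl identifier in GENCODE M21 (GRCm38), which gave coordinates and transcript lengths. The alternatives were other cell filters, scalings, pseudocounts and UMI minimums, depth windows, thinning and single lanes.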

Additional observations from a re-analysis of the deposited data

How the results depend on the processing

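The nuclear sum and each nuclear complex stayed lower in the knockout under every alternative run; the mt- sum reversed in cells of 2000 to 4000 UMIs. The ratios that moved beyond their counting interval follow, with the gene counts that changed by more than 1.5 times or from 0. Dropping the limit on mt- UMIs gave log2 ratios of 0.51 for the mt- sum and 1.33 for mt- to nuclear. A limit of 5% mt- UMIs gave log2 ratios of -0.69 for complex III, 0.39 for the mt- sum and 1.20 for mt- to nuclear. A minimum of 500 genes per cell gave a log2 ratio of -0.80 for the nuclear sum. Median-of-ratios size factors gave log2 ratios of -0.99 for complex I, -0.67 for complex II, -0.95 for complex III, -1.05 for complex IV, -1.14 for complex V, -1.03 for the nuclear sum and 0.20 for the mt- sum, and 1 mt- gene at least 1.5-fold higher. CPM outside mt- and ribosomal protein genes gave log2 ratios of -0.89 for complex I, -0.57 for complex II, -0.85 for complex III, -0.95 for complex IV, -1.04 for complex V, -0.94 for the nuclear sum and 0.30 for the mt- sum. Thinning to 1000 UMIs gave log2 ratios of -0.85 for complex I, -0.81 for complex III, -0.88 for complex IV, -0.98 for complex V, -0.88 for the nuclear sum, 0.26 for the mt- sum and 1.14 for mt- to nuclear. Cells with 2000 to 4000 UMIs gave log2 ratios of -0.84 for complex I, -0.27 for complex II, -0.93 for complex III, -0.86 for complex IV, -0.95 for complex V, -0.87 for the nuclear sum, -0.19 for the mt- sum and 0.68 for mt- to nuclear, and 1 mt- gene at least 1.5-fold higher. Wild-type cells with 0 Ccr2 UMIs alone gave log2 ratios of -0.80 for complex I, -0.87 for complex V, -0.80 for the nuclear sum, 0.33 for the mt- sum and 1.13 for mt- to nuclear. Leaving out wild-type lane 1 gave log2 ratios of -0.84 for complex I, -0.55 for complex II, -0.88 for complex IV, -0.98 for complex V, -0.87 for the nuclear sum, 0.54 for the mt- sum and 1.41 for mt- to nuclear, and 5 mt- genes at least 1.5-fold higher. Leaving out wild-type lane 2 gave log2 ratios of -0.75 for complex I, -0.81 for complex IV, -0.90 for complex V, -0.79 for the nuclear sum, 0.38 for the mt- sum and 1.17 for mt- to nuclear. Cells with 4000 to 6000 UMIs gave log2 ratios of -0.58 for complex I, -0.64 for complex III, -0.66 for complex IV, -0.74 for complex V, -0.65 for the nuclear sum, 0.054 for the mt- sum and 0.70 for mt- to nuclear, and 39 nuclear genes at least 1.5-fold lower and 1 mt- gene at least 1.5-fold higher. Cells with 6000 to 10000 UMIs gave log2 ratios of -0.55 for complex I, -0.52 for complex III, -0.62 for complex IV, -0.73 for complex V, -0.61 for the nuclear sum, 0.36 for the mt- sum and 0.97 for mt- to nuclear, and 35 nuclear genes at least 1.5-fold lower. Dropping the UMI minimum gave 1 nuclear gene at least 1.5-fold higher. The depth windows above 4000 UMIs were added after the data were seen. The shares over all genes were not taken under these alternatives, so the gene counts have no background of their own.

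For the Ccr2 classes (log2 of top class to class 0) the alternatives that moved a value are given next. Thinning to 2000 UMIs gave -0.16 for complex I, -0.036 for complex III and -0.29 for the mt- sum. Thinning to 5000 UMIs gave 0.062 for complex V and -0.032 for the nuclear sum. Classing by all Ccr2 UMIs gave -0.061 for complex I, -0.034 for complex III, -0.00025 for complex IV, 0.10 for complex V, 0.0047 for the nuclear sum and -0.24 for the mt- sum. CPM outside mt- and ribosomal protein genes gave 0.014 for complex I, 0.017 for complex III, 0.087 for complex IV, 0.13 for complex V, 0.066 for the nuclear sum and -0.089 for the mt- sum. A limit of 5% mt- UMIs gave -0.28 for the mt- sum. Lane 2 alone gave -0.022 for complex II and -0.47 for the mt- sum. Lane 1 alone gave -0.17 for the mt- sum. Cells with 4000 to 6000 UMIs before thinning gave -0.015 for complex III, -0.11 for complex IV and 0.073 for the mt- sum. Cells with 6000 to 10000 UMIs before thinning gave -0.33 for the mt- sum. Other thinning draws gave -0.021 for complex II (draw 2), 0.043 for complex V (draw 2), -0.041 for complex III (draw 3), -0.030 for the nuclear sum (draw 3), -0.046 for complex III (draw 5) and -0.19 for the mt- sum (draw 5). Where a sign differs from the report's, the direction reversed. The other alternatives stayed within the counting interval.

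Of the named genes whose counting interval lay to 1 side of 0, some changed sign. With median-of-ratios size factors, mt-Nd5 was at -0.084. In cells with 2000 to 4000 UMIs, Sdhaf2, Sdhaf1, mt-Atp6, mt-Co1, mt-Co2, mt-Cytb, mt-Nd1, mt-Nd4, mt-Nd2, mt-Nd3, mt-Nd5 and mt-Nd6 were at 0.21, 0.088, -0.12, -0.39, -0.33, -0.049, -0.086, -0.46, -0.36, -0.45, -0.41 and -0.21. In cells with 4000 to 6000 UMIs, Cox7a2l, mt-Co1, mt-Co2, mt-Nd4, mt-Nd2, mt-Nd3 and mt-Nd5 were at 0.012, -0.24, -0.14, -0.15, -0.20, -0.19 and -0.24. In cells with 6000 to 10000 UMIs, Ndufa6, Ndufs1, Sdhaf1, Cox6b2 and mt-Nd6 were at 0.069, 0.036, 0.14, 0.76 and -0.023. Of those whose interval included 0, Atp5sl was at 0.50 in cells of 2000 to 4000 UMIs, and Atp5s at -0.44 there and -0.39 at 4000 to 6000. The cause of these changes was not tested. No paired analysis was possible because each genotype has 1 library. Depth limits the low members: knockout cells under 1000 UMIs drop out of thinned values, and isoforms under 20 UMIs gave no ratio.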
